A study of Mus musculus with 6 samples.

Results

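The genes described here handle the amino acids arginine and histidine and the synthesis of nitric oxide. The 9 genes are Slc7a2, Nos2, Gch1, Ass1, Asl, Arg1, Arg2, Hal and Hdc, and each matched 1 row of a count table of 57010 mouse genes. They were chosen by gene name, as members of these pathways, by someone who already knew results of the comparison reported here. Their differences between the groups are therefore given as a description and without p-values. The samples were 6 RNA libraries of RAW 264.7 cells, a macrophage line established from a mouse tumour. All the cells had been given lipopolysaccharide, a bacterial cell wall component that drives an inflammatory (M1) state, and then extracellular vesicles (EVs, membrane particles that cells shed) of tendon stem cells. The donor cells of the vesicles had been held in normoxia for 3 libraries (normoxic-EV) and preconditioned in hypoxia for the other 3 (hypoxic-EV). The question put by the design is how macrophages differ between the vesicle treatments. The sources used here give no vesicle dose, treatment time or species of the tendon stem cells, and macrophages without vesicles were not analysed here. The labels do not state that replicates were separate cultures, so the errors below measure the spread between libraries, which may be technical.

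Arginine enters macrophages through cationic amino acid transporters and is then contested by enzymes of different kinds. Inducible nitric oxide synthase, encoded by Nos2, turns arginine into nitric oxide and citrulline and needs the cofactor tetrahydrobiopterin, while the arginases split arginine into ornithine and urea. Citrulline can be rebuilt into arginine by the enzymes of Ass1 and Asl. Nos2 is a classical marker of macrophages exposed to bacterial products, and Arg1 a classical marker of mouse macrophages exposed to interleukin 4. Histidine is lost either by deamination to urocanate, catalysed by histidine ammonia-lyase (Hal), or by decarboxylation to histamine, catalysed by histidine decarboxylase (Hdc).

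Hal rose 5.15-fold with hypoxic-EV and Ass1 rose 1.36-fold, whereas Gch1, Arg2, Asl and Hdc fell, each by less than 2-fold. The fitted level of Nos2 differed by 0.226% between the groups. Arg1 and Slc7a2 gave too few counts for the test. Of the 7 members with enough counts, 6 passed an adjusted p under 0.05 in edgeR's quasi-likelihood test over all 13303 genes tested, 2 higher and 4 lower. Of all tested genes 44.2% passed, 22.7% higher and 21.5% lower. The median absolute log2 fold change was 0.44 in these 7 and 0.21 in all tested genes, and 1 of the 7 reached 2-fold. No overlap between the 2 groups of libraries was seen in 6 of the 7, against 52.8% of all tested genes. The members had been chosen with this comparison known, so nothing is read from these counts. Levels are given in CPM, counts per 1000000 counts of a library, in the order of replicates 1 to 3. In bulk RNA, fewer cells expressing a gene and less RNA per cell cannot be told apart.

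**Figure D1:**
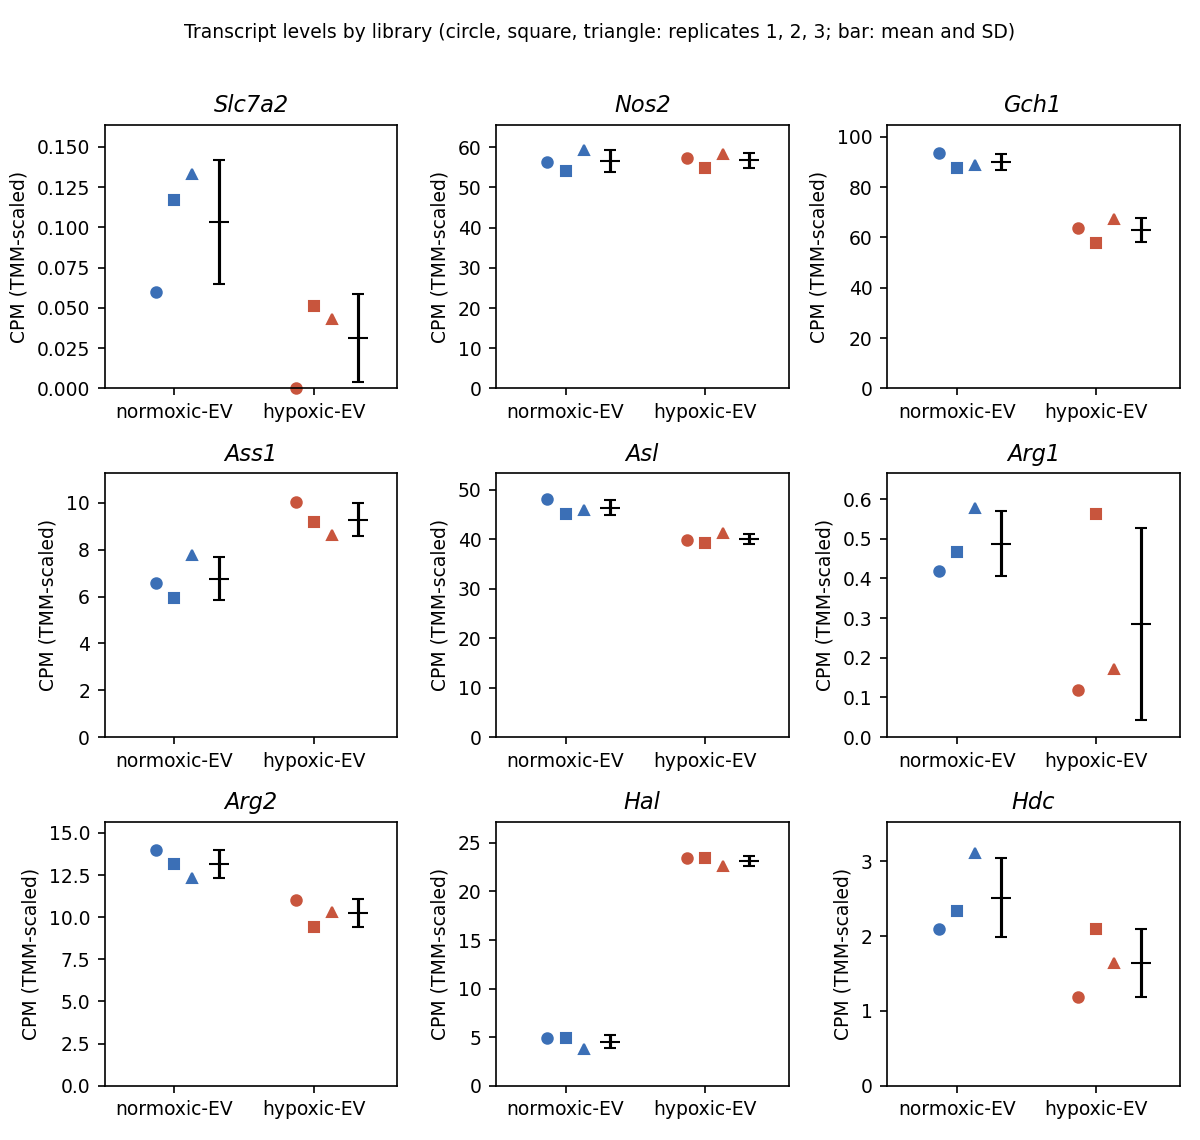
Level of each of the 9 genes in CPM (TMM-scaled, vertical axis from 0) in the 3 normoxic-EV (blue) and 3 hypoxic-EV (red) libraries, with the mean and SD in black beside the points. Hal stood between 3.82 and 4.91 CPM with normoxic-EV and between 22.6 and 23.5 CPM in hypoxic-EV, while the points of Nos2 and of Arg1 overlapped between the groups.

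The promoters of Hal and Gch1 are shown because these genes had the largest rise and the largest fall of the set relative to their SE. Each sequence is the 250 bases before the annotated transcription start in the RefSeq reference of build GRCm38.p6, written 5' to 3' on the strand of the gene, which is the plus strand for Hal (chr10:93488518-93488767) and the minus strand for Gch1 (chr14:47189414-47189663). Capitals mark matches to the motifs named after the sequences.
Hal: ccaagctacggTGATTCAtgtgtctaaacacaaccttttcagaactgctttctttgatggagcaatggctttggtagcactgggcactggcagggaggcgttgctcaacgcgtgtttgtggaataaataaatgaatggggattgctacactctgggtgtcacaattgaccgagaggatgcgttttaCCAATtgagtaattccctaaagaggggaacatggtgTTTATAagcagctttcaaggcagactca
Gch1: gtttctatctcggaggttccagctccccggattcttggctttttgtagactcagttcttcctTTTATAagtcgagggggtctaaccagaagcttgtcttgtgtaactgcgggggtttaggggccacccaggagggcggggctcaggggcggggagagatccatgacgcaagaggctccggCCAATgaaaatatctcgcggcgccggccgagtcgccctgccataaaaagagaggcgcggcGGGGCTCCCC
The search covered both strands for the TATA box (TATAAA), the CCAAT box (CCAAT), the core of the hypoxia response element (ACGTG), the gamma-activated site (TTCNNNGAA), the AP-1 site (TGANTCA), the core of the cAMP response element (TGACGT), the interferon-stimulated response element and the NF-kB consensus. In the Hal window TGATTCA, an AP-1 match, lay 239 to 233 bases before the start, a CCAAT box 64 to 60 bases before it, and TTTATA, which reads as the TATA box on the opposite strand, 28 to 23 bases before it. In the Gch1 window a CCAAT box lay 70 to 66 bases before the start, a TATA box on the opposite strand 188 to 183 bases before it, and an NF-kB match, GGGGCTCCCC, in the last 10 bases. Over 32851 promoter windows of the same length, 6.75% held an AP-1 match, 33.8% a CCAAT box, 12.4% a TATA box and 3.90% an NF-kB match. Windows of the table matched 4 of the 9 members, the others being Ass1 and Hdc. The Ass1 window held CACGTG 36 to 31 bases before the start, a palindrome with the letters ACGTG on both strands, which 16.6% of windows hold on either strand. None of the 8 motifs matched in the Hdc window. The windows differed in base composition: GC content was 75.6% for Ass1, 59.2% for Gch1, 48.8% for Hdc and 45.6% for Hal, against a median of 52.4% over all windows, and the Gch1 window held 17 CG dinucleotides and the Hal window 6. A match is a description of the letters and does not show binding.

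Slc7a2 encodes CAT2, the cationic amino acid transporter known to be induced with Nos2 in activated macrophages. It was almost undetected (ENSMUSG00000031596, chromosome 8, 41315433 to 41375345 in GRCm39), with 1, 2 and 3 counts in normoxic-EV replicates 1 to 3 and 0, 1 and 1 counts in hypoxic-EV replicates 1 to 3. The pooled rate in hypoxic-EV was 0.314 times that in normoxic-EV, with an exact 95% interval for counting error of 0.0310 to 1.76, so a difference was not detectable at this depth. Slc7a1, which encodes the widely expressed transporter CAT1 and is named here after its values were seen, stood at 23.2 ± 2.13 FPKM in normoxic-EV and 25.1 ± 1.47 FPKM in hypoxic-EV (SD, n = 3), against 0.0113 and 0.00341 FPKM for Slc7a2. FPKM values scale the counts by library total and by 1 length per gene. Levels can then be set side by side between genes, as far as that length holds.

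Nos2 (ENSMUSG00000020826, chromosome 11, 78811613 to 78851080) had 56.4, 54.1 and 59.4 CPM in the normoxic-EV libraries and 57.4, 54.7 and 58.2 CPM in the hypoxic-EV libraries. The ranges overlapped almost wholly. The 95% interval of the log2 fold change ran from -0.12 to 0.12, which corresponds to ratios of hypoxic-EV to normoxic-EV between 0.923 and 1.09. Nos2 was well counted, with 926 to 1353 counts per library, and its coefficients of variation were 4.70% with normoxic-EV and 3.23% with hypoxic-EV, where counting alone gives 3.09% and 2.997%.

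Gch1 encodes GTP cyclohydrolase 1, the first and rate-limiting enzyme of tetrahydrobiopterin synthesis (ENSMUSG00000037580, chromosome 14, 47391352 to 47426870). It had 93.4, 87.4 and 88.9 CPM with normoxic-EV and 63.9, 57.8 and 67.3 CPM in hypoxic-EV. All 3 hypoxic-EV libraries were below all 3 normoxic-EV libraries, and the gap between the groups was wider than the spread within either. Gch1 fell 1.43-fold (log2 fold change -0.51, SE 0.0583). Its coefficient of variation in hypoxic-EV, 7.63%, was 2.69 times what counting alone gives, and hypoxic-EV replicate 2 was the lowest library.

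The FPKM ratio of Nos2 to Gch1 within a library was 0.849, 0.871 and 0.941 in normoxic-EV and 1.27, 1.33 and 1.22 in hypoxic-EV. By FPKM, Gch1 therefore stood above Nos2 in each normoxic-EV library and below it in each hypoxic-EV library. The level of Nos2 was alike in both groups. This change of order rests on the gene lengths behind the FPKM values, 6251 bases for Gch1 and 4439 for Nos2. By CPM, Gch1 stood above Nos2 in every library.

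The enzymes that rebuild arginine from citrulline moved in opposite directions. Ass1, encoding argininosuccinate synthase, the rate-limiting step (ENSMUSG00000076441, chromosome 2, 31360219 to 31410684), had 6.58, 5.96 and 7.78 CPM with normoxic-EV and 10.03, 9.19 and 8.65 CPM in hypoxic-EV. Ass1 rose 1.36-fold (log2 fold change 0.44, SE 0.125), and the highest normoxic-EV library, replicate 3, lay below the lowest hypoxic-EV library. Asl, encoding argininosuccinate lyase, the next enzyme (ENSMUSG00000025533, chromosome 5, 130040099 to 130058088), had 48.0, 45.1 and 45.9 CPM with normoxic-EV and 39.8, 39.3 and 41.2 CPM in hypoxic-EV. Asl fell 1.15-fold (log2 fold change -0.21, SE 0.0603), the smallest difference among the members that passed, with no overlap between the groups. The FPKM ratio of Asl to Ass1 within a library was 3.65, 3.78 and 2.95 in normoxic-EV and 1.98, 2.13 and 2.38 in hypoxic-EV.

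Arg1, encoding the cytosolic arginase (ENSMUSG00000019987, chromosome 10, 24791119 to 24803382), had 7, 8 and 13 counts in normoxic-EV and 2, 11 and 4 counts in hypoxic-EV. The groups overlapped, because hypoxic-EV replicate 2 had more than normoxic-EV replicates 1 and 2. The pooled rate in hypoxic-EV was 0.572 times that in normoxic-EV (exact 95% interval for counting error 0.294 to 1.08). Without hypoxic-EV replicate 2 the log2 ratio of the pooled rates moved from -0.81 to -1.73. It moved to -0.50 without hypoxic-EV replicate 1 and to -0.48 without hypoxic-EV replicate 3. The size of the difference thus depends on single libraries, most on hypoxic-EV replicate 2. Arg2, encoding the mitochondrial arginase (ENSMUSG00000021125, chromosome 12, 79177551 to 79203075), was the main arginase transcript, at 14.0, 13.1 and 12.3 CPM with normoxic-EV and 11.04, 9.39 and 10.3 CPM in hypoxic-EV. Arg2 fell 1.28-fold (log2 fold change -0.36, SE 0.103) with no overlap between the groups. Over 285 bases the Arg2 gene overlaps Vti1b, a vesicle fusion gene on the other strand, which had 1032% of the counts of Arg2 and whose own log2 fold change was -0.19 (adjusted p = 0.00303 by edgeR). Over 997 bases it overlaps Gm48780, a long non-coding RNA gene on the other strand, with 26.1% of the counts of Arg2 and a log2 fold change of -0.31 (adjusted p = 0.168 by edgeR). No source used here gives the strand setting of the counting, so reads of the shared stretches cannot be told apart, and the part of Vti1b and Gm48780 in the Arg2 value was not tested. The FPKM ratio of Nos2 to Arg2 was 1.30, 1.32 and 1.55 in normoxic-EV and 1.67, 1.87 and 1.81 in hypoxic-EV.

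Hal (ENSMUSG00000020017, chromosome 10, 93324630 to 93355166) had 82, 84 and 86 counts in normoxic-EV and 398, 460 and 525 counts in hypoxic-EV, or 4.91, 4.90 and 3.82 CPM against 23.5, 23.5 and 22.6 CPM. The groups were far apart and the libraries of each group close together. The log2 fold change was 2.36 (SE 0.108, 95% interval 2.14 to 2.59), the 6th highest of the 13303 tested genes. At least a 2-fold rise that passed the test was seen in 1.65% of tested genes. In hypoxic-EV the coefficient of variation of Hal was 2.22%, below the 4.70% that counting alone gives. Hal was the only member in the authors' deposited table of 462 genes, which holds no gene under a 2-fold change, with a log2 fold change of 2.37 in that table.

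Hdc (ENSMUSG00000027360, chromosome 2, 126435587 to 126461219) was rare, with 2.09, 2.34 and 3.11 CPM with normoxic-EV and 1.18, 2.09 and 1.64 CPM in hypoxic-EV. The groups all but touched, since the lowest normoxic-EV and the highest hypoxic-EV library both round to 2.09 CPM. Hdc fell 1.54-fold (log2 fold change -0.62, SE 0.235), with 20 to 70 counts per library. The call ended without normoxic-EV replicate 3 (log2 fold change -0.42), without hypoxic-EV replicate 1 (-0.46), without hypoxic-EV replicate 3 (-0.61) and with DESeq2 (-0.62). Within a library, the FPKM ratio of Hal to Hdc was 2.70, 2.42 and 1.41 in normoxic-EV and 22.9, 12.9 and 15.9 in hypoxic-EV.

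**Figure D2:**
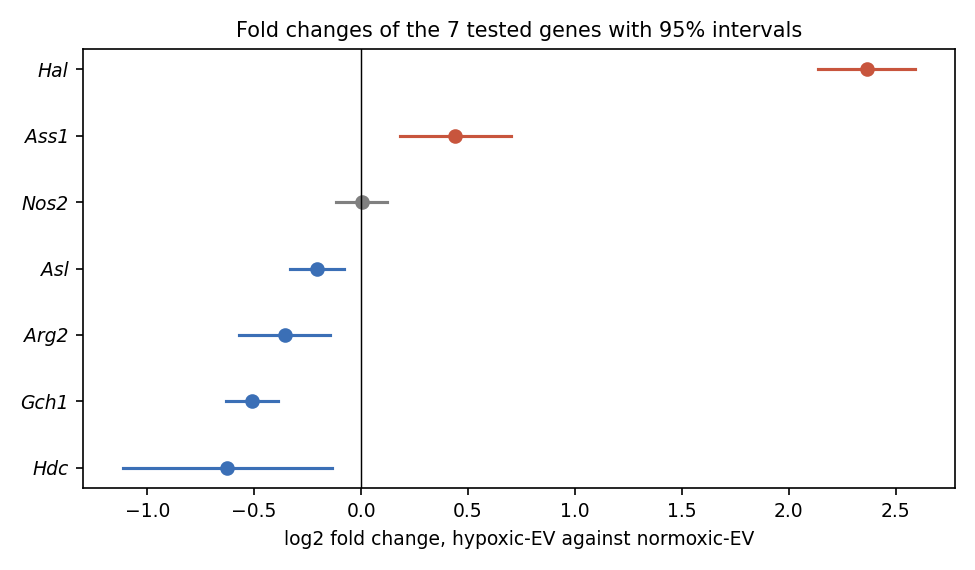
Log2 fold change of hypoxic-EV against normoxic-EV (horizontal axis) for the 7 tested genes, with 95% intervals from the edgeR fit, red and blue for genes that passed higher or lower and grey for Nos2. Hal lies apart at 2.36, Nos2 is centred on 0.00, and Hdc has the widest interval.

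Length-scaled levels put the members in a similar order in both groups, with Gch1 and Nos2 highest and Slc7a2 lowest. This order rests on the length used for each gene, such as 4831 bases for Asl and 1428 for Arg2. By CPM, Asl stood at 46.3 and Arg2 at 13.1 in normoxic-EV. In normoxic-EV, Gch1 led at 14.4 ± 0.462 FPKM, followed by Nos2 at 12.7 ± 0.592 FPKM, Asl at 9.58 ± 0.289 FPKM and Arg2 at 9.20 ± 0.573 FPKM (SD, n = 3). Ass1 at 2.80 FPKM, Hal at 0.818 FPKM, Hdc at 0.393 FPKM and Arg1 at 0.219 FPKM came below. Only Asl and Arg2, neighbours in this order, overlapped in their values. In hypoxic-EV, Nos2 led at 12.8 ± 0.472 FPKM, ahead of Gch1 at 10.06 ± 0.788 FPKM, Asl at 8.29 ± 0.204 FPKM and Arg2 at 7.17 ± 0.645 FPKM (SD, n = 3). Hal, at 4.17 ± 0.123 FPKM, stood next to Ass1, at 3.85 ± 0.330 FPKM, and their values overlapped, as did those of Hdc at 0.255 FPKM and Arg1 at 0.127 FPKM. By FPKM, Hal thus lay well below Ass1 in normoxic-EV and beside it in hypoxic-EV. By CPM, Hal stood at 4.54 and Ass1 at 6.77 in normoxic-EV, and at 23.2 and 9.29 in hypoxic-EV.

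**Figure D3:**
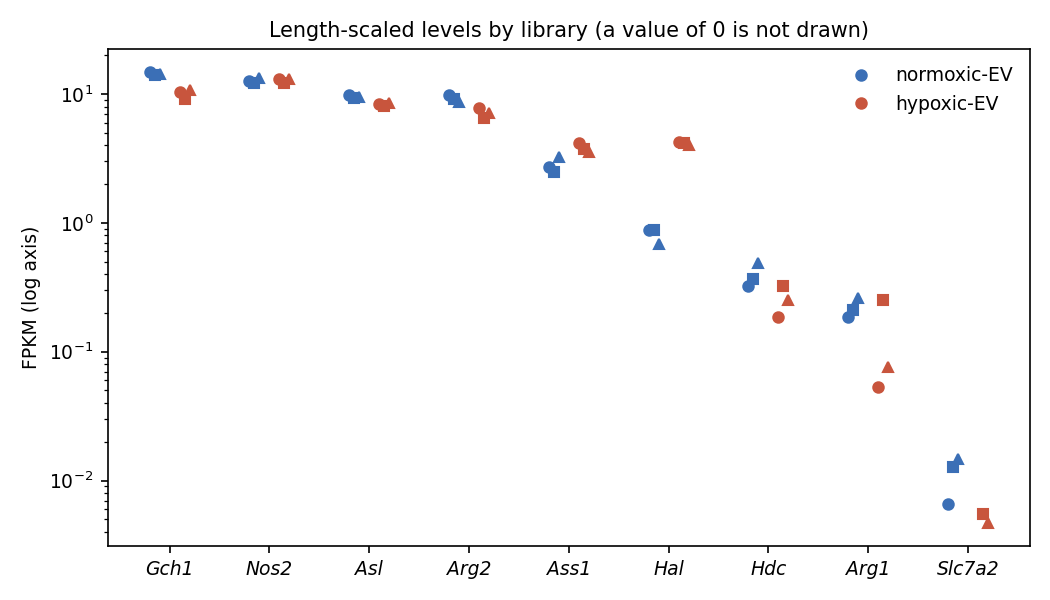
FPKM of each gene (log axis) in each library, normoxic-EV in blue and hypoxic-EV in red, ordered by the mean in normoxic-EV. Gch1, Nos2, Asl and Arg2 stand near 10 FPKM in both groups, Hal moves from 0.818 to 4.17 FPKM, and Slc7a2 stays near 0.01 FPKM or below.

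The genes whose pattern over the 6 libraries was most like that of Hal were Pmepa1, Treml4 and Igf1. Likeness was the Euclidean distance between log2 CPM profiles centred on their means, over 9604 protein-coding genes that reached a mean of 5 CPM in either group. The distance to Hal was 0.449 for Pmepa1, 0.512 for Treml4 and 0.615 for Igf1, against a median of 2.87 over the genes compared. Pmepa1, a membrane protein gene known as a TGF-beta target, had 10.4 ± 0.325 CPM with normoxic-EV and 44.2 ± 2.44 CPM in hypoxic-EV (SD, n = 3). Treml4, a myeloid receptor gene, had 1.29 ± 0.110 and 5.72 ± 0.364 CPM, and Igf1, a growth factor gene, 2.66 ± 0.210 and 10.3 ± 0.487 CPM. With only these libraries, the distance is set mostly by the difference between the groups.

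Of 92 other genes of these pathways, listed from textbook knowledge, 59 were tested. Of these, 13 rose, 11 fell and 35 were not called, so 40.7% passed where 44.2% of all tested genes did. By direction, 22.7% of all tested genes were called higher and 21.5% lower. The counts by list below are small and are descriptions beside these shares. Their median log2 fold change was 0.02. Below, Slc7a6, Gamt, Nos1, Pts, Txn1, Slc15a3, Cndp2, Hrh1 and Nfkb1 are named by a fixed rule, and the other genes were named after their values were seen.

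In arginine transport and sensing, 2 of 8 tested genes rose and 1 fell. Slc7a6 and Castor2 rose (log2 fold changes 0.31 and 0.37), and Slc38a9 fell (-0.42). Slc7a6, encoding a subunit of an arginine exchanger, had the lowest p, at 74.8, 76.8 and 83.3 CPM with normoxic-EV and 97.5, 96.5 and 97.3 CPM in hypoxic-EV (1.24-fold higher, edgeR adjusted p = 5.97e-05). Among 14 tested genes of the urea cycle and of ornithine and proline metabolism, 5 rose and 1 fell (median log2 fold change 0.21). The risers included Aldh18a1, which makes the precursor of proline and ornithine from glutamate (log2 fold change 0.44), and the ornithine aminotransferase gene Oat (0.28). They also included the mitochondrial aspartate carrier gene Slc25a13 (0.46) and Gatm (0.38), whose enzyme starts creatine synthesis from arginine. Gamt, for the second step of creatine synthesis, rose from 0.232 ± 0.00870 to 1.07 ± 0.334 CPM (SD, n = 3, 4.43-fold) on 75 counts in all. Gamt met the count filter only through hypoxic-EV, so its rise is a description and no p-value is given. With the filter of at least 1 CPM in 3 libraries it was not tested. Its normoxic-EV libraries, at 0.239, 0.234 and 0.222 CPM, held few counts, so their small SD does not measure counting error. Odc1, encoding ornithine decarboxylase, which makes putrescine from ornithine, was the gene of this list that fell (log2 fold change -0.26). The urea cycle genes Otc and Nags stayed at 0 counts throughout, which leaves room for at most 0.179 CPM in any library.

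Of 8 tested genes of other nitric oxide synthases, their partners and methylarginine clearance, 4 rose and 0 fell. Nos1, encoding the neuronal synthase, had 3.89, 3.15 and 3.73 CPM with normoxic-EV and 6.55, 6.48 and 4.48 CPM in hypoxic-EV (1.61-fold higher, edgeR adjusted p = 0.00231), with no overlap and with hypoxic-EV replicate 3 nearest to normoxic-EV. Prmt1, an arginine methyltransferase gene, Nostrin and the calmodulin gene Calm2 were the others that rose (log2 fold changes 0.48, 0.43 and 0.27). Among 5 tested genes of tetrahydrobiopterin synthesis and recycling, 0 rose and 1 fell, Pts, for the enzyme after Gch1, from 47.2 ± 3.41 to 41.3 ± 3.59 CPM (SD, n = 3, 1.14-fold, edgeR adjusted p = 0.0339). The groups overlapped for Pts, and its call was lost with DESeq2 (adjusted p = 0.0663) and without normoxic-EV replicate 1 or 2 or hypoxic-EV replicate 1 or 3 (edgeR adjusted p = 0.0603, 0.189, 0.0522 and 0.219). In the nitric oxide response list 1 of 6 tested genes rose, the thioredoxin gene Txn1 (1.15-fold higher, edgeR adjusted p = 0.000762), and the guanylate cyclase genes Gucy1a1, Gucy1a2 and Gucy1b1, whose products form the nitric oxide receptor, had 0 counts.

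In histidine degradation, transport and dipeptide metabolism, 3 of 7 tested genes fell and 1 rose. Slc15a3, encoding a lysosomal transporter of histidine and peptides, had 251, 233 and 221 CPM with normoxic-EV and 118, 111 and 128 CPM in hypoxic-EV (1.97-fold lower, edgeR adjusted p = 1.39e-11). Tmem132a overlaps Slc15a3 on the other strand and had 6.53% of its counts, and its part in the Slc15a3 value was not tested. The related gene Slc15a4 had a log2 fold change of -0.55. Cndp2, encoding a dipeptidase that can split carnosine, fell from 457 ± 16.1 to 255 ± 13.2 CPM (SD, n = 3, 1.79-fold, edgeR adjusted p = 1.39e-11). Uroc1 and Ftcd, for later steps of the pathway that Hal opens, had 0 counts, and Amdhd1, for the step between them, had 52 counts in all and was not tested. Of 11 genes of histamine handling and its receptors 2 were tested and 0 passed, Hrh1 having the lower p (0.473 ± 0.213 and 0.654 ± 0.194 CPM, SD, n = 3, edgeR adjusted p = 0.484), and the histamine-degrading genes Hnmt and Aoc1 had 0 counts. Among 9 tested transcription factor genes known to act on Nos2 or Arg1, 5 fell and 0 rose: Nfkb1, an NF-kB subunit gene, had 219 ± 1.22 CPM with normoxic-EV and 175 ± 3.67 CPM in hypoxic-EV (SD, n = 3, 1.25-fold lower, edgeR adjusted p = 4.5e-06), and Rela, Cebpb, Hif1a and Stat3 had log2 fold changes of -0.25, -0.29, -0.14 and -0.19. The call of Cebpb was lost with DESeq2 (adjusted p = 0.153) and without normoxic-EV replicate 1 or hypoxic-EV replicate 2 (edgeR adjusted p = 0.127 and 0.0655). That of Hif1a was lost with no count filter (edgeR adjusted p = 0.0585) and without normoxic-EV replicate 1 or 3 or hypoxic-EV replicate 1 or 3 (edgeR adjusted p = 0.0685, 0.165, 0.173 and 0.0651). Irf1, Irf8, Stat6 and Klf4 were not called.

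**Figure D4:**
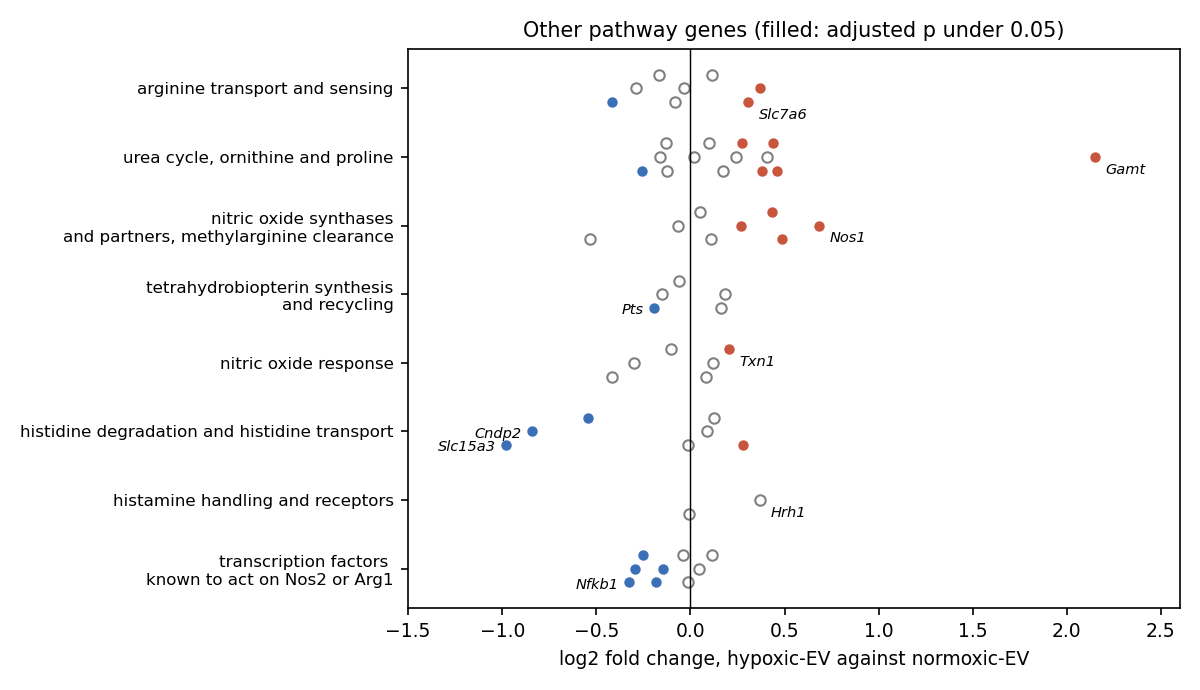
Log2 fold change of hypoxic-EV against normoxic-EV for 59 tested genes of 8 pathway lists, filled red or blue where the edgeR adjusted p is under 0.05 and open otherwise, with the genes chosen by the naming rule labelled. The values run from -0.98 for Slc15a3 to 2.15 for Gamt.

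Library totals ran from 16751665 to 23422328 counts. Macrophage markers were present in every library: the summed level of 11 genes was 10516 to 10949 CPM with normoxic-EV and 8499 to 8898 CPM in hypoxic-EV. Of 10 tested, 2 were called higher and 6 lower, where 22.7% of all tested genes were called higher and 21.5% lower. Most of the summed level was Lyz2, at 7946 CPM with normoxic-EV and 6091 CPM with hypoxic-EV, while Csf1r stood at 174 and 352 CPM. Of 12 tendon and stromal markers, 5 (Tnmd, Col1a2, Col3a1, Fmod and Thy1) had 0 counts, and the list summed to 1.02 to 1.87 CPM with normoxic-EV and 0.947 to 1.48 CPM in hypoxic-EV. Hdc is a known mast cell and basophil gene, and 6 of 9 markers of those cells (Mcpt4, Mcpt8, Fcer1a, Ms4a2, Tpsb2 and Cma1) had 0 counts, with a sum of 1.58 to 2.71 CPM with normoxic-EV and 2.71 to 3.72 CPM in hypoxic-EV, mostly Gata2. Hal is a known liver and epidermis gene, and 5 of 7 markers of those tissues (Ttr, Krt5, Krt14, Krt1 and Krt10) had 0 counts, with a sum of at most 0.479 CPM with normoxic-EV and 0.306 CPM in hypoxic-EV. Among 8 neutrophil markers, Elane and Retnlg had 0 counts, and the sum, nearly all S100a8, was 238 to 270 CPM with normoxic-EV and 96.2 to 120 CPM in hypoxic-EV. The part of the macrophage and neutrophil marker differences in the values of the 9 genes was not tested.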

How the data were processed

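Poly(A) RNA of 6 RAW 264.7 libraries was sequenced in pairs on an Illumina HiSeq, per the labels' protocols. Build GRCm39 and the tools HISAT2, featureCounts and DESeq2 come from the submitters' processing notes; no source used here gives versions, annotation or strand setting. The authors deposited counts of whole reads for each gene, FPKM values, a table of normalized counts (a signal equal to the counts divided by 1 size factor per library, not used further), and a table of their comparison with log2 fold changes, test scores (a Wald score per gene) and p-values.

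The count test used edgeR 4.0.16 (R 4.3.3): filterByExpr (minimum count 10, minimum total 15), TMM, quasi-likelihood F-test (two-sided), Benjamini-Hochberg adjustment over 13303 genes, with both groups and no covariate. CPM values are TMM-scaled, ± is SD, and the SE is the log2 fold change over the square root of F. The test was checked on simulated data with the same spread between replicates for all genes and few changed genes. In these data 44.2% of tested genes passed, so that check does not cover their setting. Groups follow the treatment in the labels. A count of 3, the limit that a count of 0 allows, is 0.129 to 0.179 CPM. Intervals of log2 fold changes come from the edgeR fit and include the spread between libraries. The exact intervals of Arg1 and Slc7a2 and the limits of a count of 0 cover counting error only, since reads that carry no molecular identifier are not independent molecules. Pairs of replicate libraries differed by a chi-square of 2.72 to 5.84 per degree of freedom, more than counting noise.

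The members, lists and tests were chosen with earlier results of these data known. All members were named; other pathway genes were named if they passed at 1.5-fold or more with at least 1 CPM, up to 4 a list, or else by the lowest p of the list. Further genes of these lists are not reported here and stand in no list count. List symbols matched the count table, 2 of them by synonym. Promoters are RefSeq sequences of GRCm38.p6, a build other than that of the counts, and no coordinates were converted. Alternatives were RLE scaling, DESeq2 1.42.0, limma-voom (limma 3.58.1), 2 other filters, a replicate block and leaving out each library.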

Additional observations from a re-analysis of the deposited data

How the results depend on the processing

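Over 12 alternatives (RLE scaling, DESeq2, limma-voom, no count filter, at least 1 CPM in 3 libraries, the replicate block and each library left out) the genes called ran from 4887 to 5866, against 5877, the members called from 5 to 6, and the other pathway genes called from 22 to 26, against 24. Hal, Gch1, Ass1, Arg2 and Asl kept their direction and passed in all 12, with log2 fold changes of 2.24 to 2.43, -0.56 to -0.45, 0.35 to 0.57, -0.41 to -0.30 and -0.23 to -0.18. Asl and Arg2 passed only narrowly without normoxic-EV replicate 1, as did Ass1 without normoxic-EV replicate 2. Hdc passed in 8 of 12. Nos2 passed in 0 of 12, ran from -0.0316 to 0.0441 with 1 library left out, and its sign changed with RLE scaling (-0.000795), without normoxic-EV replicate 2 (-0.0316), without hypoxic-EV replicate 1 (-0.00408) and without hypoxic-EV replicate 3 (-0.0132); the cause was not tested, and each value is within its SE. The other pathway genes that passed, with Hrh1 and the 3 genes patterned like Hal, 28 in all, kept direction in each of 334 values and side of the threshold in 320; the 14 lost calls were 5 of Pts (log2 fold changes -0.21 to -0.12), 5 of Hif1a (-0.15 to -0.09), 3 of Cebpb (-0.29 to -0.18) and 1 of Carnmt1, without normoxic-EV replicate 2 (0.23). With the replicate block 5662 genes, 6 members and 24 other pathway genes were called; deviations of same-numbered libraries correlated at -0.0156, -0.0177 and -0.0175, so the numbers were not taken to pair the samples. For Arg1 and Slc7a2, alternatives added after seeing the data gave log2 ratios of -1.73 to -0.48 and -2.10 to -1.19. Low counts limit Arg1, Slc7a2 and Hdc.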
